A study of Mus musculus with 8 samples.

Results

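Glycolysis enzyme genes were examined in motor neurons and white matter of the newborn mouse spinal cord. The 10 genes were taken by name from a list of glycolytic enzymes, out of 23278 genes measured, and they were Hk1, Gpi1, Pfkp, Aldoa, Pgk1, Eno1, Eno2, Pkm2, Ldha and Ldhb. The rule uses their names and no measured value, although earlier results of these data were known when the list was made. All 10 passed the filter for testing, which asked for at least 1 RPKM (reads divided by gene length in kilobases and by the size of the library) in at least 2 libraries.

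The study profiled total RNA by RNA-seq in 8 libraries captured by laser from lumbar spinal cord, in FVB/N mice at postnatal day 1. The 4 groups, with 2 libraries each, were ventral horn motor neurons of SMA mice, ventral horn motor neurons of WT mice, white matter of SMA mice and white matter of WT mice. SMA mice model spinal muscular atrophy before symptoms: they carry the human SMN2 gene and the SMNΔ7 transgene on both chromosomes and lack mouse Smn, whereas WT mice carry the normal gene. Captures were made on sections stained with hematoxylin, so cells were taken by shape and position and not by a marker. The labels name no animals, so whether a library pooled animals is not known. A p-value here speaks for the spread of libraries alone.

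Glycolysis splits glucose into pyruvate in the cytosol and yields ATP and NADH. Lactate dehydrogenase then turns pyruvate into lactate and restores NAD+, or runs the other way where lactate is taken up. In nervous tissue several steps are carried out by isozymes from separate genes, and neurons and glia are known to differ in which isozyme they use.

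Smn1, the gene the model lacks, was listed at 0 in all 4 SMA libraries, and at 6.82 and 2.93 RPKM in WT motor neurons and 5.30 and 14.3 RPKM in WT white matter. Xist, the RNA of the inactive X chromosome, had 17.9 and 0.0020 RPKM in SMA motor neurons, 12.6 and 0.026 RPKM in WT motor neurons, 37.0 and 0.058 RPKM in SMA white matter and 31.1 and 0.031 RPKM in WT white matter, replicate 1 before replicate 2. The summed RPKM of 4 Y-linked genes (Ddx3y, Eif2s3y, Kdm5d and Uty) was 0 in replicate 1 of every group and 2.38 to 31.0 in replicate 2. The spread within each group holds this difference in sex-linked genes, which cannot be told apart from the replicate number. The RPKM steps gave library denominators of 77.5 to 102.8 M reads. Reads summed over all genes exceeded the denominator in every library but replicate 2 of WT white matter. Over all genes, RPKM summed to between 374010 and 380560 in motor neuron libraries and between 254230 and 339760 in white matter. The regions thus differ in scale as deposited. Reads behind a single value of the 10 genes numbered 194 to 82901. Summed RPKM of 9 motor neuron markers was 2839 and 2665 in SMA motor neurons and 3929 and 3137 in WT motor neurons. The same sum was 157 and 94.3 in SMA white matter and 75.2 and 70.0 in WT white matter. Among these markers Mnx1 was listed at 0 in at least 1 library. Oligodendrocyte markers, 12 genes with Mog at 0 in at least 1 library, summed to between 97.7 and 174 RPKM in motor neuron libraries and between 2025 and 4954 RPKM in white matter.

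Enolase and lactate dehydrogenase each come as a pair of isozyme genes among the 10, and the DNA before the start sites of both enolase and both lactate dehydrogenase genes is shown to set the pairs side by side. Each line holds the 250 bases before an annotated start, 5′ to 3′ on the gene's strand, from RefSeq on GRCm38.p6, a reference of another strain than these mice. Where a gene had several windows, the one with the most motif matches is shown. Capitals mark the core letters bound by hypoxia-inducible factor, ACGTG or GCGTG, read on both strands (CACGT or CACGC on the opposite strand), and matches may overlap.

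Eno1, chr4:150236947-150237196, plus strand: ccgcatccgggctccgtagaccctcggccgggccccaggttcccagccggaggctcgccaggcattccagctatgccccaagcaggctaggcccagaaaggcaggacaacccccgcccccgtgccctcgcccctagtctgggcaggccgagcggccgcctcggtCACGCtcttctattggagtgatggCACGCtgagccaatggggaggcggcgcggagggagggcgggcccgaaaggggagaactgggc

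Eno2, chr6:124769674-124769923, minus strand: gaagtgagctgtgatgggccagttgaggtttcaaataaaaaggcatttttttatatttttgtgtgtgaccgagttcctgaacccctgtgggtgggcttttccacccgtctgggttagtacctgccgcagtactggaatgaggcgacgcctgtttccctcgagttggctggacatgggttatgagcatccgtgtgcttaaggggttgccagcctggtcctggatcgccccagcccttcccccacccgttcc

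Ldha, chr7:46845554-46845803, plus strand: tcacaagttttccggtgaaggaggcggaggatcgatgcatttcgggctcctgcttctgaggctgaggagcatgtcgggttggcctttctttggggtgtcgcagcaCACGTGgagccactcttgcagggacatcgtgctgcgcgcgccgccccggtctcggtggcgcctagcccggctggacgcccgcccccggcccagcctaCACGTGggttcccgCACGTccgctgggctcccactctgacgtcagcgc

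Ldhb, chr6:142507958-142508207, minus strand: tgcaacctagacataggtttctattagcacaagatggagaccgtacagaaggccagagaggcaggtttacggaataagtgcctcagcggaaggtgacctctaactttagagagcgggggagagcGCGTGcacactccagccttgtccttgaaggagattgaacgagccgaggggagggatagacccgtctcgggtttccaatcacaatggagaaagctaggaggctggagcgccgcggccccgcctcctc

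Ldha held 5 matches, Eno1 2, Ldhb 1 and Eno2 0 in these windows. Over all windows of the 10 genes, 12 of 17 (70.6%) held a match, against 38.6% of the 32851 windows in the table. By gene, 8 of the 10 had a match in some window, against 41.5% of 27025 genes, and Eno2 and Gpi1 had none. The shares over all genes were not matched for base composition, number of windows per gene or expression, each of which can change how often a match occurs. The 4 windows shown were 54.4 to 71.2% G or C. A match is a run of letters and not a measured binding site.

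Most of the glycolysis genes were higher in motor neurons than in white matter in both genotypes. On log2(RPKM + 1), limma with Benjamini-Hochberg adjustment over all 13948 genes tested called 7 of 10 higher in SMA motor neurons than in SMA white matter, where 13.6% of all genes were called higher. It called 9 of 10 higher in motor neurons than in white matter of WT mice, against 18.6% of all genes. None of the 10 was called lower in either comparison, where 17.2% of all genes were in SMA mice and 9.85% in WT mice. In either direction, 30.8% of all genes were called in SMA mice and 28.4% in WT mice. The median log2 difference of the 10 genes was 1.53 in SMA mice and 1.93 in WT mice on the deposited scale. Over all genes tested the medians were −0.24 and 0.08. After median-of-ratios scaling the 10 genes had medians of 1.73 in SMA and 1.76 in WT mice, beside −0.08 and −0.06 over all genes. The regions differ in the cells they hold, and in such bulk captures fewer cells of a type and less RNA per cell cannot be told apart.

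**Figure D1:**
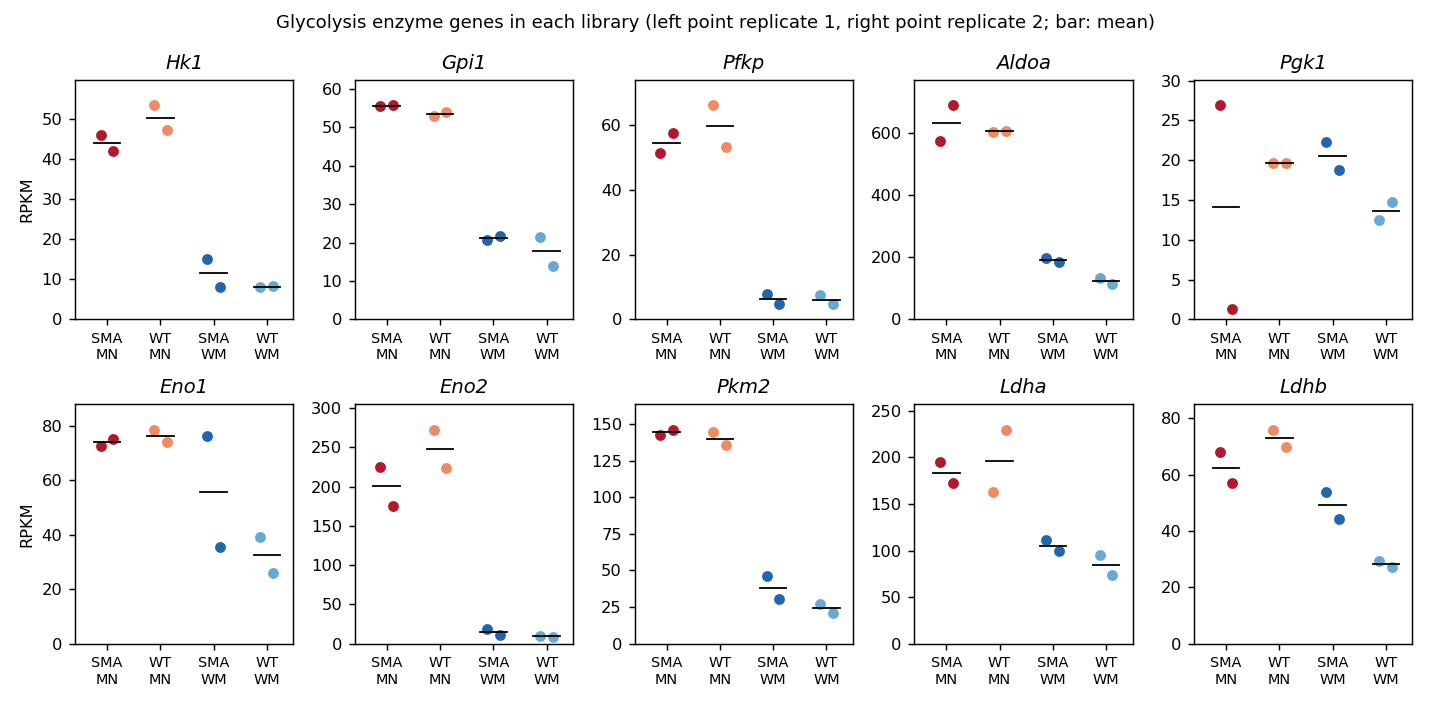
RPKM of each glycolysis gene (vertical axis, linear from 0) in SMA and WT motor neurons (MN) and SMA and WT white matter (WM). Each point is a library and each bar the mean of 2. Eno2 lies between 176 and 272 RPKM in motor neurons and between 8.14 and 18.2 RPKM in white matter, while Pgk1 has a point at 1.31 RPKM in SMA motor neurons.

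Hk1 encodes the hexokinase that traps glucose as glucose phosphate. It had 46.2 and 42.2 RPKM in SMA motor neurons, against 15.1 and 8.10 RPKM in SMA white matter. It had 53.5 and 47.3 RPKM in WT motor neurons, against 8.06 and 8.38 RPKM in WT white matter. The regions did not overlap in either genotype. The log2 difference was 1.90 ± 0.31 in SMA mice (SE; limma adjusted p = 0.0020) and 2.48 ± 0.31 in WT mice (limma adjusted p = 0.00043). Hk2, a hexokinase isozyme of muscle and growing cells, reached only 0.213 and 0.0749 RPKM in SMA motor neurons and 1.31 and 1.64 RPKM in SMA white matter. Hk1 made up 98.5% ± 1.40 of hexokinase RPKM in SMA motor neurons and 99.1% ± 0.699 in those of WT mice, against 83.8% ± 11.5 in SMA white matter and 78.5% ± 2.38 in WT white matter (SD, n = 2 each).

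Gpi1 encodes the isomerase that turns glucose phosphate into fructose phosphate. Its levels were 55.5 and 55.7 RPKM in SMA motor neurons against 20.7 and 21.6 RPKM in SMA white matter, and 53.0 and 54.0 RPKM in WT motor neurons against 21.4 and 13.9 RPKM in WT white matter. The libraries of each region stood clear of the other region's. The log2 difference was 1.35 ± 0.26 in SMA mice (limma adjusted p = 0.0048) and 1.57 ± 0.26 in WT mice (limma adjusted p = 0.0020).

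Pfkp encodes the platelet-type subunit of phosphofructokinase, which commits sugar to glycolysis. Pfkp had 51.4 and 57.4 RPKM in SMA motor neurons against 7.96 and 4.88 RPKM in SMA white matter. In WT mice it had 66.1 and 53.1 RPKM in motor neurons against 7.41 and 4.78 RPKM in white matter. This was the largest region difference after that of Eno2 among the 10 genes, at 2.93 ± 0.32 in SMA mice (limma adjusted p = 0.00027) and 3.11 ± 0.32 in WT mice (limma adjusted p = 0.00015). Of all phosphofructokinase RPKM, Pfkp took 47.4% ± 1.27 in SMA motor neurons and 50.5% ± 4.95 in those of WT mice, against 19.5% ± 2.57 in SMA white matter and 22.4% ± 2.83 in WT white matter. The muscle-type subunit Pfkm held most of the white matter signal, 54.7% ± 3.43 in SMA and 54.5% ± 8.43 in WT white matter.

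Aldoa encodes an aldolase, which splits fructose bisphosphate into a pair of triose phosphates, and it had the highest level of the 10 genes in every group. It had 573 and 689 RPKM in SMA motor neurons against 198 and 185 RPKM in SMA white matter. It had 605 and 608 RPKM in WT motor neurons against 133 and 114 RPKM in WT white matter. Every motor neuron library exceeded every white matter library. The log2 difference was 1.71 ± 0.19 in SMA mice (limma adjusted p = 0.00034) and 2.29 ± 0.19 in WT mice (limma adjusted p = 5.5e-05). Aldoc, the brain aldolase that is also used as an astrocyte marker, had 647 and 578 RPKM in SMA motor neurons and 681 and 623 RPKM in SMA white matter. It had 629 and 587 RPKM in WT motor neurons and 480 and 484 RPKM in WT white matter, and it passed in neither genotype (limma adjusted p = 0.72 in SMA and 0.19 in WT mice). Aldoa made up 50.6% ± 5.27 of aldolase RPKM in SMA motor neurons and 50.0% ± 1.31 in those of WT mice, against 22.7% ± 0.224 in SMA white matter and 20.3% ± 1.83 in WT white matter.

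Pgk1 encodes phosphoglycerate kinase, which makes the pathway's earliest ATP. It had 26.9 and 1.31 RPKM in SMA motor neurons against 22.2 and 18.7 RPKM in SMA white matter, so the regions overlapped. It had 19.7 and 19.6 RPKM in WT motor neurons against 12.5 and 14.8 RPKM in WT white matter, with no overlap. Neither difference passed, at −1.42 ± 0.86 in SMA mice (limma adjusted p = 0.24) and 0.50 ± 0.86 in WT mice (limma adjusted p = 0.71). The low value rested on 194 reads in replicate 2, against 3955 reads in replicate 1. Pgk1 lies on the X chromosome, and these replicates also differ in Xist and the Y-linked genes. The replicates of every other group differ in those genes too, with the Pgk1 values given above. Replicate 2 of SMA motor neurons also had the fewest genes at 1 RPKM or more of the 8 libraries, 11539. The part of sex or of library quality in the low value was not tested. The gap of 3.60 on the log2 scale was exceeded by 0.201% of genes tested in SMA motor neurons. Without replicate 2 the SMA region difference was 0.38 (limma adjusted p = 0.33), and without replicate 1 it was −3.21 (limma adjusted p = 9.4e-05). Much of the Pgk1 transcript, 68.0% of its runs of 50 bases, also occurs in other annotated genes.

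Enolase turns phosphoglycerate into phosphoenolpyruvate. Eno2 encodes the neuron-specific form and Eno1 the general form. Eno2 had 226 and 176 RPKM in SMA motor neurons against 18.2 and 10.7 RPKM in SMA white matter, and 272 and 223 RPKM in WT motor neurons against 10.3 and 8.14 RPKM in WT white matter. It had the largest region difference of the 10 genes, 3.74 ± 0.30 in SMA mice (limma adjusted p = 6.6e-05) and 4.61 ± 0.30 in WT mice (limma adjusted p = 1.7e-05).

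Eno1 differed less. Its levels were 72.7 and 75.2 RPKM in SMA motor neurons against 76.2 and 35.6 RPKM in SMA white matter, where the regions overlapped. They were 78.6 and 74.0 RPKM in WT motor neurons against 39.2 and 26.1 RPKM in WT white matter, where they did not. Eno1 did not pass in SMA mice, at 0.50 ± 0.35 (limma adjusted p = 0.31), and passed in WT mice, at 1.23 ± 0.35 (limma adjusted p = 0.027). The WT call was lost without either WT motor neuron replicate (limma adjusted p = 0.14 and 0.11) or without WT white matter replicate 2 (limma adjusted p = 0.18). The WT call of Eno1 was also lost under quantile normalization (limma adjusted p = 0.12) and with no filter (limma adjusted p = 0.071). It was lost as well with Rn45s removed and values rescaled (limma adjusted p = 0.076). The test of the difference between genotypes did not pass (limma adjusted p = 0.88). Eno2 made up 72.3% ± 3.90 of enolase RPKM in SMA motor neurons and 76.2% ± 1.79 in WT motor neurons, against 19.0% ± 0.0944 in SMA white matter and 21.6% ± 1.68 in WT white matter. Of Eno1's runs of 50 bases, 72.2% occur in other annotated genes. Its copy Gm5506 was listed at 125 and 127 RPKM in SMA motor neurons, above Eno1 itself. The Eno2 shares leave Gm5506 out and would be lower with it counted beside Eno1. Eno1 and Gm5506 together had 198 and 202 RPKM in SMA motor neurons and 195 and 193 RPKM in WT motor neurons. In white matter they had 166 and 94.6 RPKM in SMA and 91.4 and 71.8 RPKM in WT mice. How reads with several matches were counted is not given in the sources used here, so Eno1 and Pgk1 levels are uncertain. A smaller part was shared for Pkm2 (34.4%), Ldhb (27.0%) and Gpi1 (25.3%), whose levels may be affected too. The rest of the 10 genes shared between 0.255 and 17.1%. Gapdh, a glycolytic enzyme outside the 10 genes, had 3.61 and 4.75 RPKM in SMA motor neurons and 6.34 and 3.41 RPKM in WT motor neurons. With 82.5% of such runs shared, its level is uncertain as well.

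Pkm2, the symbol the tables use for the muscle pyruvate kinase gene, stands for the enzyme that makes pyruvate and ATP. It had 143 and 146 RPKM in SMA motor neurons against 46.4 and 30.3 RPKM in SMA white matter, and 144 and 135 RPKM in WT motor neurons against 27.0 and 21.3 RPKM in WT white matter. The regions did not overlap. The log2 difference was 1.92 ± 0.26 in SMA mice (limma adjusted p = 0.00082) and 2.50 ± 0.26 in WT mice (limma adjusted p = 0.00016). Values per gene do not separate the splice forms of pyruvate kinase.

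Ldha and Ldhb encode the subunits of lactate dehydrogenase, of which Ldha is usually tied to lactate production and Ldhb to lactate use. Ldha had 195 and 172 RPKM in SMA motor neurons against 111 and 99.1 RPKM in SMA white matter. In WT mice Ldha had 163 and 230 RPKM in motor neurons against 95.2 and 74.2 RPKM in white matter. It passed in both, at 0.80 ± 0.24 in SMA mice (limma adjusted p = 0.033) and 1.19 ± 0.24 in WT mice (limma adjusted p = 0.0055). The SMA call of Ldha was lost without SMA motor neuron replicate 1 (limma adjusted p = 0.070) or either SMA white matter replicate (limma adjusted p = 0.087 and 0.15). Its WT call was lost without replicate 2 of WT motor neurons (limma adjusted p = 0.073) or of WT white matter (limma adjusted p = 0.051). The WT call of Ldha was also lost under quantile normalization (limma adjusted p = 0.10). Its SMA call was also lost under quantile normalization (limma adjusted p = 0.14) and with no filter (limma adjusted p = 0.058). No trend (limma adjusted p = 0.081) or the compared groups only (limma adjusted p = 0.071) lost it too. Ldhb had 68.1 and 56.9 RPKM in SMA motor neurons against 53.8 and 44.4 RPKM in SMA white matter. In WT mice it had 75.9 and 69.9 RPKM in motor neurons against 29.5 and 27.2 RPKM in white matter. Ldhb did not pass in SMA mice, at 0.34 ± 0.23 (limma adjusted p = 0.29), although the libraries did not overlap, and passed in WT mice, at 1.33 ± 0.23 (limma adjusted p = 0.0025). The subunits kept closer shares than the enolases did: Ldhb took 25.3% ± 0.749 of lactate dehydrogenase RPKM in SMA motor neurons and 27.6% ± 6.03 in those of WT mice, against 31.7% ± 1.19 in SMA white matter and 25.2% ± 2.31 in WT white matter.

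**Figure D2:**
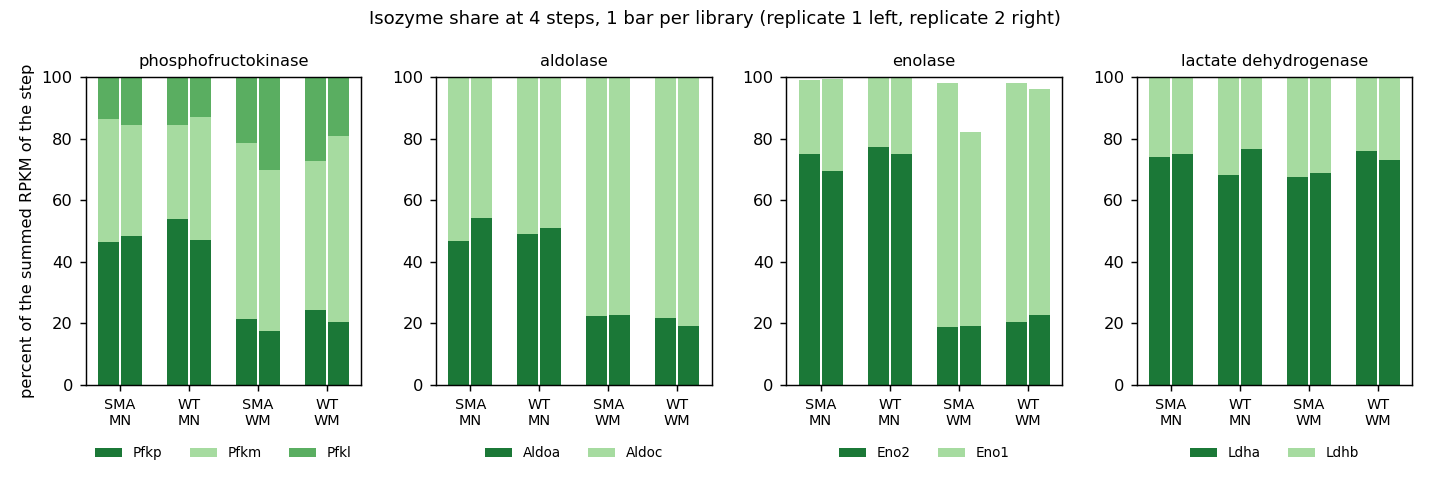
Percent of the summed RPKM of a step (vertical axis, 0 to 100) taken by each isozyme, with a bar per library, for phosphofructokinase, aldolase, enolase and lactate dehydrogenase. Gaps below 100 in the enolase panel belong to Eno3, which is not drawn. The Eno1 copy Gm5506 is not part of the enolase sum. Eno2 fills 69.5 to 77.5% of the enolase bars in motor neurons and 18.9 to 22.8% in white matter, while Ldha fills 67.4 to 76.6% of the lactate dehydrogenase bars in all libraries.

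Across the 10 genes, libraries of the 2 regions did not overlap for 8 genes in SMA mice, all higher in motor neurons, where 26.7% of all genes were higher without overlap and 37.2% lower. In WT mice all 10 were higher without overlap, against 39% of all genes higher and 31% lower. Summed over the 10 genes, RPKM was 1457 and 1472 in SMA motor neurons and 1531 and 1514 in WT motor neurons, against 570 and 458 in SMA white matter and 383 and 313 in WT white matter. The order of levels ran from Aldoa at the top to Pgk1 at the bottom in both groups of motor neurons, and from Aldoa to Pfkp in both groups of white matter. Eno2 and Ldha overlapped each other in both groups of motor neurons, and Eno1 and Ldhb overlapped in both groups of white matter.

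**Figure D3:**
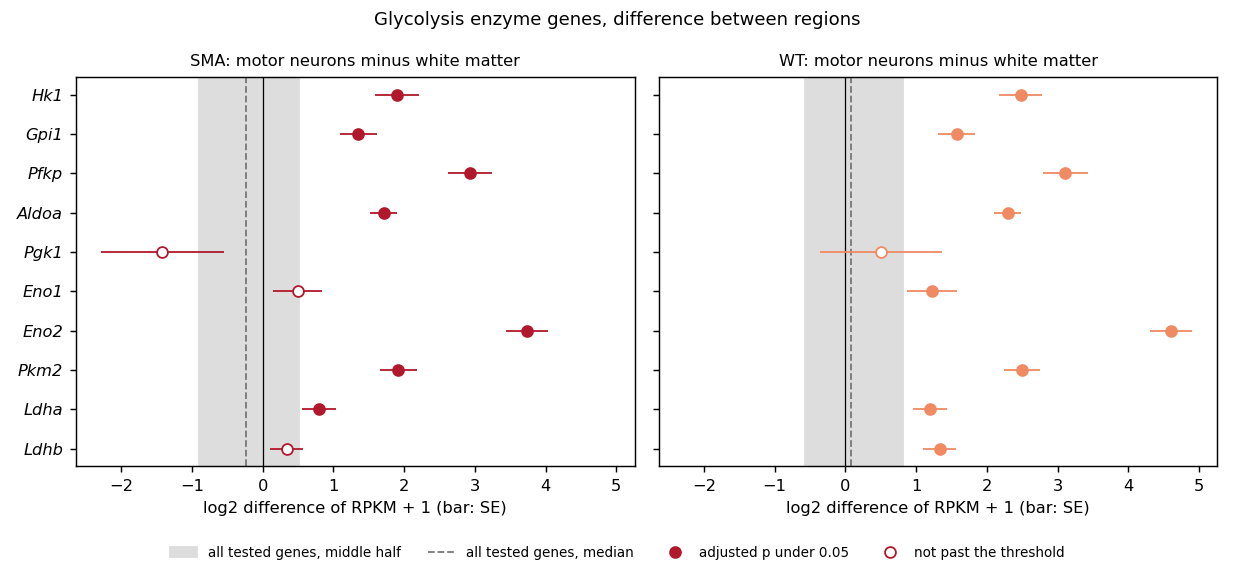
Log2 difference of RPKM + 1 (horizontal axis) of motor neurons minus white matter in SMA mice (left) and WT mice (right). Points are limma estimates with SE bars, filled where the adjusted p is under 0.05. The dashed line is the median and the grey band spans the quartiles of all genes tested. Eno2 stands highest, at 3.74 in SMA and 4.61 in WT mice, and Pgk1 is the open point at −1.42 in SMA mice.

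Other genes of glucose metabolism differed in both directions between the regions. Of the other glycolytic enzymes and isozymes, 11 of 17 could be tested. In SMA mice 3 of the 11 were higher and 2 lower in motor neurons than in white matter. In WT mice 4 were higher and 2 lower. Of all genes tested, 13.6% were called higher and 17.2% lower in SMA mice, and 18.6% higher and 9.85% lower in WT mice. Tpi1, the triose phosphate isomerase, averaged 112 ± 6.03 RPKM in WT motor neurons and 24.8 ± 7.10 RPKM in WT white matter (SD, n = 2 each). Pgam1, a phosphoglycerate mutase, averaged 82.6 ± 6.24 RPKM in WT motor neurons and 21.9 ± 2.62 RPKM in WT white matter. Bpgm, which diverts a triose intermediate to bisphosphoglycerate, went the other way, with 8.63 ± 0.314 RPKM in WT motor neurons and 26.8 ± 4.30 RPKM in WT white matter.

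Of 9 transporters tested, 3 were higher and 1 lower in motor neurons in each genotype, and 5 were not called, where 30.8% of all genes were called in SMA mice and 28.4% in WT mice. Slc2a3, the neuronal glucose transporter, averaged 46.9 ± 0.581 RPKM in WT motor neurons and 2.88 ± 0.914 RPKM in WT white matter, a log2 difference of 3.65 ± 0.32 (limma adjusted p = 7.2e-05). Bsg, the partner protein of monocarboxylate transporters, averaged 420 ± 41.9 RPKM in WT motor neurons and 142 ± 18.7 RPKM in WT white matter. Slc2a4, the insulin-regulated glucose transporter, was lower, with 1.92 ± 0.171 RPKM in WT motor neurons and 8.49 ± 0.677 RPKM in WT white matter.

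Downstream of pyruvate, 6 of 15 genes of the tricarboxylic acid cycle were higher and 1 lower in motor neurons of SMA mice. In those of WT mice, 13 were higher and 1 lower. Over all genes, 13.6% were called higher and 17.2% lower in SMA mice, and 18.6% higher and 9.85% lower in WT mice. Citrate synthase (Cs), which opens the cycle, averaged 166 ± 7.49 RPKM in WT motor neurons and 64.6 ± 2.60 RPKM in WT white matter. Of 10 genes of the shuttles that carry NADH electrons into mitochondria, 5 were higher and 1 lower in SMA mice, and 6 were higher and 1 lower in WT mice. Mdh1, the cytosolic malate dehydrogenase, averaged 262 ± 4.59 RPKM in WT motor neurons and 36.7 ± 1.74 RPKM in WT white matter, a log2 difference of 2.81 ± 0.22 (limma adjusted p = 3.4e-05). Of 13 genes of pyruvate entry, 2 were higher and 2 lower in SMA mice, a share equal to the 30.8% of all genes called, and 5 were higher and 1 lower in WT mice, where 28.4% of all genes were called.

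The side branches are set beside the 30.8% of all genes called in SMA mice and the 28.4% called in WT mice. In the pentose phosphate pathway 0 of 8 genes were higher and 2 lower in motor neurons of each genotype. Taldo1, its transaldolase, averaged 14.2 ± 1.99 RPKM in WT motor neurons and 51.4 ± 11.7 RPKM in WT white matter. In glycogen metabolism, 0 of 12 were higher and 2 lower in SMA mice, and 2 were higher and 1 lower in WT mice. In gluconeogenesis, 1 of 4 tested genes was higher and 2 lower in SMA mice, and 1 was higher and 0 lower in WT mice. Among 11 tested regulators of glycolytic genes, 0 were higher and 1 lower in each genotype. Hypoxia targets outside glycolysis split evenly in SMA mice, with 2 of 8 higher and 2 lower, and in WT mice 2 were higher and 1 lower.

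**Figure D4:**
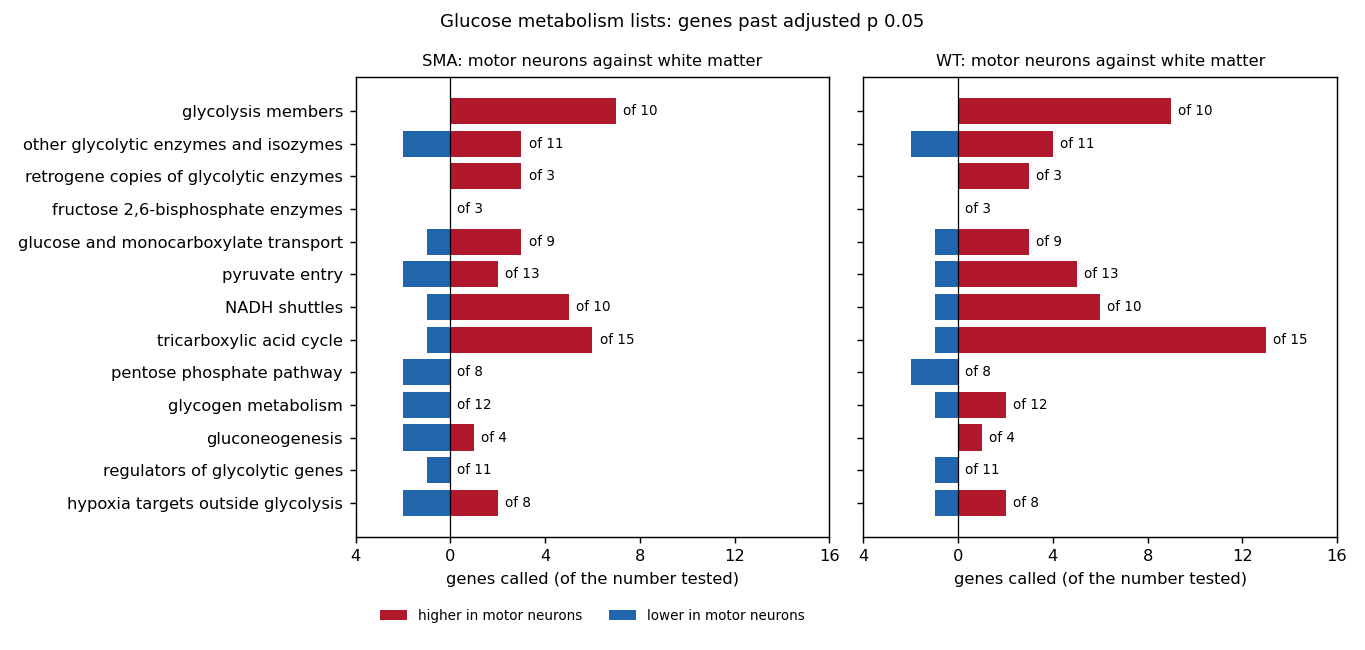
Number of genes called (adjusted p under 0.05, horizontal axis) higher (red, to the right) or lower (blue, to the left) in motor neurons than in white matter, by gene list, in SMA mice (left) and WT mice (right), with the number tested beside each bar. The glycolysis genes have 7 of 10 higher in SMA and 9 of 10 in WT mice, and the tricarboxylic acid cycle 6 and 13 of 15. Over all genes, 13.6% were called higher in SMA and 18.6% in WT mice.

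Between genotypes, no glycolysis gene passed in motor neurons. limma called 0 of the 10, and 0% of all genes tested, which became 123 genes without SMA replicate 1. Over all genes the smallest adjusted p from limma was 0.26, and 609 genes had an unadjusted p under 0.05, none of them among the 10. The log2 differences ran between −1.36 and 0.06, with a median of −0.10 beside −0.05 over all genes. Pgk1 had the lowest, −1.36 ± 0.86 (limma adjusted p = 1.0), and it rested on the replicate with 194 reads. Without that replicate it was 0.43 (limma adjusted p = 0.60), and without the other it was −3.16 (limma adjusted p = 0.0031). Eno2 followed at −0.31 ± 0.30, with overlapping libraries. Hk1 and Ldhb had lower values in both SMA libraries than in either WT library, where 15.5% of all genes did, and Gpi1 had higher values in both, where 12.7% did. Aldoc and Tpi1, the other glycolytic genes with the highest levels, had differences of 0.01 ± 0.17 and −0.17 ± 0.29. Summed motor neuron markers were lower in both SMA libraries (2839 and 2665 RPKM) than in the WT ones (3929 and 3137 RPKM). Nefm and Nefl made up most of that sum. Sums of neuron markers overlapped, at 1757 and 1461 RPKM in SMA and 1604 and 1542 RPKM in WT motor neurons. Microglia markers, 8 genes, were higher, at 91.4 and 80.5 RPKM in SMA and 26.1 and 31.1 RPKM in WT motor neurons. Oligodendrocyte markers summed higher too, at 174 and 137 RPKM in SMA and 127 and 97.7 RPKM in WT motor neurons. Of these 12 genes, 8 had a positive and 4 a negative log2 difference. Mbp alone had 66.6 and 39.3 RPKM in SMA and 33.8 and 17.0 RPKM in WT motor neurons. Astrocyte marker sums overlapped, at 200 and 117 RPKM in SMA and 132 and 116 RPKM in WT motor neurons. Endothelium marker sums overlapped too, at 21.4 and 12.2 RPKM in SMA and 16.4 and 12.9 RPKM in WT motor neurons. The part of these cell types in the values of the 10 genes was not tested.

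In white matter, too, limma called 0 of the 10 genes between SMA and WT mice, with 0% of all genes called, a smallest adjusted p of 0.17 and 880 genes at an unadjusted p under 0.05. Of the 10 genes, 3 had such an unadjusted p. On the deposited scale all 10 differences were positive, between 0.06 and 0.77 with a median of 0.56. Over all genes the median was 0.27 and 80.0% of differences were positive, so most genes tested leaned the same way on the deposited scale. After median-of-ratios scaling the median over all genes was 0.00, and the 10 genes had a median of 0.25 with 7 positive and 3 negative. Without SMA white matter replicate 1 the 10 genes had a median of 0.27, beside 0.22 over all genes, with 8 positive and 2 negative. In all, 6 of the 10 genes were higher in both SMA libraries than in either WT library, where 39.7% of all genes were, and none was lower in both, where 4.17% of all genes were.

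Ldhb had the largest difference in white matter, 0.77 ± 0.23 (limma adjusted p = 0.73), with 53.8 and 44.4 RPKM in SMA and 29.5 and 27.2 RPKM in WT white matter. Eno1 was at 0.69 ± 0.35, Aldoa at 0.63 ± 0.19, Pkm2 at 0.63 ± 0.26 and Eno2 at 0.56 ± 0.30. Pfkp had the smallest, 0.06 ± 0.32, and turned negative under that scaling, as did Gpi1 and Ldha. Replicate 1 of SMA white matter was the higher of the SMA pair for 9 of the 10 genes. It also had the highest sum of neuron markers in white matter, 150 RPKM. That sum was 137 RPKM in the other SMA library and 92.1 and 77.5 RPKM in WT white matter. Its sums of oligodendrocyte (4954 RPKM) and astrocyte markers (913 RPKM) were the highest in white matter as well. So were its sums of motor neuron (157 RPKM), endothelium (37.4 RPKM) and dividing cell markers (82.7 RPKM). Only its sums of microglia and red blood cell markers were not. The part of neuronal RNA, or of a higher level across many genes in that library, was not tested. Aldoc and Tpi1 had differences of 0.43 ± 0.17 and 0.22 ± 0.29.

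**Figure D5:**
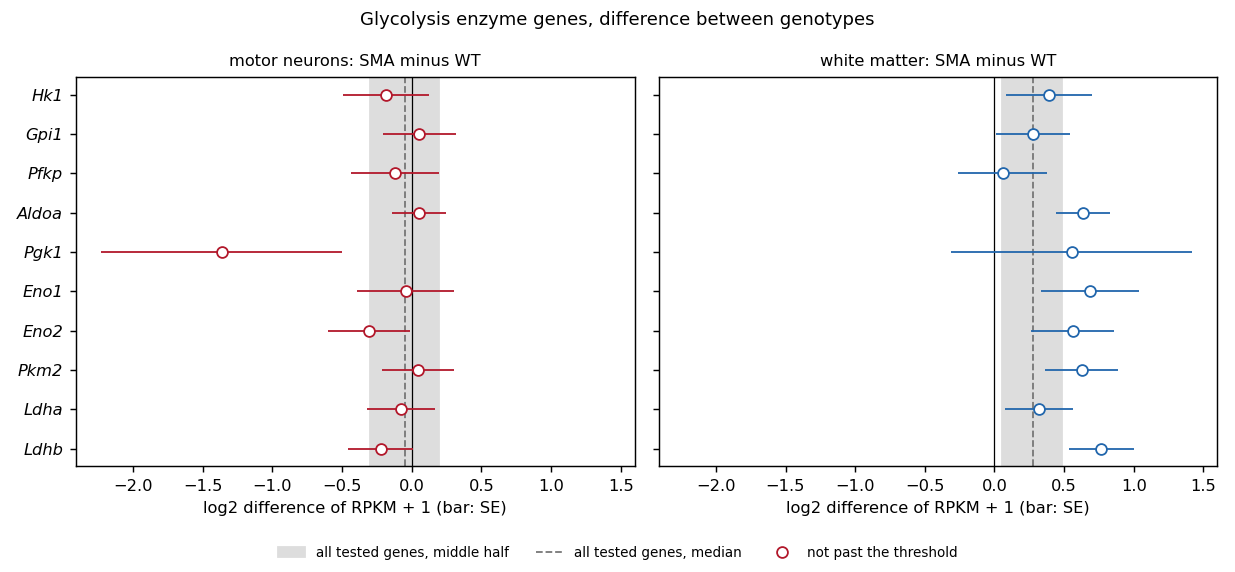
Log2 difference of RPKM + 1 (horizontal axis) of SMA minus WT in motor neurons (left) and white matter (right). Points are limma estimates with SE bars, all open because none passed. The dashed line is the median and the grey band spans the quartiles of all genes tested. In white matter all 10 points are above 0, as is the median of all genes at 0.27.

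On the deposited scale the SMA difference in motor neurons minus that in white matter was negative for all 10 genes, between −0.18 for Pfkp and −1.92 for Pgk1 on the log2 scale, with a median of −0.58. Median-of-ratios scaling gave a median of −0.23 with 2 positive and 8 negative. Over all genes only 24.2% of these values were positive, and their median was −0.33. limma called 0 of the 10 and 0% of all genes, with a smallest adjusted p of 0.88 among the 10 and 0.11 over all genes, where 693 had an unadjusted p under 0.05. Without SMA motor neuron replicate 1 it called 17 genes, among them Pgk1. Ldhb had −0.99 ± 0.33 and Eno2 −0.87 ± 0.42. These values share libraries with the comparisons above. Averaged over both regions, the SMA difference lay between −0.41 for Pgk1 and 0.34 for Aldoa. limma called 0 of the 10 and 0% of all genes, with a smallest adjusted p of 0.053 and 836 genes at an unadjusted p under 0.05. Without SMA motor neuron replicate 1 it called 8 genes, none of them among the 10.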

How the data were processed

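RPKM values, 1 for each gene in each library, were deposited by the authors. TopHat, bedtools, DESeq and the mm9 build are named in the submitters' processing notes. No version, annotation, strand setting or rule for multiply matching reads is given there. For 17429 of 17431 genes above 0 in at least 3 libraries, the RPKM steps gave whole reads within 0.02 of a read. Tests used limma 3.58.1 in R 4.3.3 on log2(RPKM + 1), which understates changes of low genes. A fit of 4 group means to all 8 libraries used eBayes with trend, two-sided p-values, Benjamini-Hochberg adjustment over 13948 genes and a threshold of 0.05. The model was tested on simulated data. Shared 50-base runs came from GENCODE mouse transcripts and promoter windows from RefSeq. Python 3.11.15, numpy 2.4.6, pandas 2.3.3 and matplotlib 3.10.9 were used otherwise.

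The 10 genes and all lists were chosen with earlier results of these data known. All 10 genes are named in every comparison. Of other lists, up to 4 genes past the threshold with the smallest p could be named, here only in the WT region comparison. Where none passed, up to 2 with the highest mean RPKM could be named, here only for the other glycolytic enzymes between genotypes. Outside that rule, Hk2, Pfkm, Aldoc, Gm5506 and Gapdh, which are isozymes, a copy and a further enzyme of the same steps, are also given with SMA values, and Xist and 4 Y-linked genes as checks. These were chosen after their values were seen. Alternatives covered the pseudocount (0.1), no filter, other scalings, no trend, fewer groups, a replicate block, voom on the recovered reads and leaving out each library.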

Additional observations from a re-analysis of the deposited data

How the results depend on the processing

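Over 17 alternatives, 7 of the 9 genes called in the WT region comparison kept that call in every one, Ldha in 14 and Eno1 in 11. In SMA mice 6 of 7 kept it in every one and Ldha in 10. Leaving out a library in turn gave 7 to 9 genes called between WT regions, 6 to 7 between SMA regions, 0 to 1 between genotypes in motor neurons, 0 to 1 for the difference of effects, and 0 in white matter and over both regions. The 1 is Pgk1, without SMA motor neuron replicate 1. Directions turned as follows on the log2 scale, and the cause was not tested beyond what each setting changes. Leaving out a library in turn gave a range, between SMA regions, of −3.21 to 0.38 for Pgk1, −0.042 to 1.03 for Eno1. Quantile normalization gave, between SMA and WT motor neurons, −0.093 for Aldoa, −0.053 for Aldoc. Leaving out a library in turn gave a range, between SMA and WT motor neurons, of −0.28 to 0.032 for Pfkp, −0.081 to 0.18 for Aldoa, −3.16 to 0.43 for Pgk1, -1.9e-05 to 0.092 for Pkm2, −0.32 to 0.17 for Ldha, −0.071 to 0.091 for Aldoc. Median-of-ratios scaling gave, between SMA and WT white matter, −0.042 for Gpi1, −0.23 for Pfkp, −0.011 for Ldha, −0.11 for Tpi1. Quantile normalization gave, between SMA and WT white matter, −0.047 for Gpi1, −0.26 for Pfkp, −0.047 for Ldha, −0.12 for Tpi1. Removing Rn45s and rescaling gave, between SMA and WT white matter, −0.068 for Gpi1, −0.26 for Pfkp, −0.039 for Ldha, −0.13 for Tpi1. Leaving out a library in turn gave a range, between SMA and WT white matter, of −0.019 to 0.81 for Hk1, −0.016 to 0.57 for Gpi1, −0.25 to 0.36 for Pfkp, −0.092 to 0.52 for Tpi1. The labels give no pairing by replicate number, and same-numbered deviations over all genes correlated only between −0.34 and 0.08, although Xist and the Y-linked genes split by that number in every group. With a replicate block, 7 genes were called between SMA regions, 9 between WT regions and 0 between genotypes. Over all genes, calls between SMA and WT motor neurons were 0 as reported and 123 without SMA replicate 1. Calls between SMA regions were 4295 as reported, 2415 with the compared groups only and 2272 to 5539 with a library left out. Calls between WT regions were 3967 as reported and 2015 to 5333 with a library left out, so the shares of all genes called move as well. The difference of effects, negative for all 10 genes as reported, was positive for 2 of them under median-of-ratios scaling, quantile normalization, removing Rn45s or leaving out WT white matter replicate 2, and for 1 without SMA white matter replicate 1. Calls in other lists moved more: the tricarboxylic acid cycle had 1 to 14 between SMA regions (7 as reported) and 6 to 15 between WT regions (14 as reported), pyruvate entry 2 to 7 (4) and 4 to 11 (6), other glycolytic enzymes 2 to 6 (5) between SMA regions, and regulators 0 to 4 (1) and 0 to 3 (1). Between SMA and WT regions, gluconeogenesis had 0 to 3 (3) and 0 to 2 (1), glycogen metabolism 0 to 5 (2) and 1 to 4 (3), hypoxia targets 0 to 4 (4) and 1 to 4 (3), and the pentose phosphate pathway 1 to 2 (2) and 1 to 3 (2).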
